A study of Mus musculus with 6 samples.

Results

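The interleukin-6 (IL-6) family was followed through 10 genes of the 54532 in the deposited table. They encode 5 cytokines (Il6, Lif, Il11, Osm and Clcf1) and 5 receptor chains (Il6st, Il6ra, Lifr, Osmr and Il11ra1), and were taken from the table by gene symbol, the list of symbols having been chosen with earlier results of these data known. RNA was sequenced from mouse T cells co-cultured with ID8, a mouse ovarian cancer cell line. The ID8 cells had been pretreated either with 40 µM cisplatin, a platinum drug that crosslinks DNA (cisplatin group, n = 3 libraries), or with PBS, a buffer (control group, n = 3). All 6 libraries share the remaining conditions, namely T cells isolated from the spleens of C57BL/6 mice aged 6 to 8 weeks with a kit for all T cells, held in IL-2 medium and pre-activated with beads against CD3 and CD28. The drug was given to the tumour cells before the co-culture, so the comparison addresses how T-cell cultures differ after meeting cisplatin-pretreated tumour cells. ID8 is a single cell line, and no library of ID8 cells alone was analysed here. The labels do not say whether the 3 libraries of a group came from separate mice or cultures, and p-values then measure only the spread between these libraries, which may be technical.

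IL-6 family cytokines signal through gp130, the shared receptor chain encoded by Il6st. IL-6 and IL-11 first bind their own chains, IL-6Rα (Il6ra) and IL-11Rα (Il11ra1), and these complexes then engage gp130. Leukaemia inhibitory factor (Lif) uses gp130 paired with the LIF receptor (Lifr), and mouse oncostatin M (Osm) uses mainly gp130 paired with the oncostatin M receptor (Osmr). Bound receptors activate JAK kinases and STAT3. In T cells, IL-6 is known for its part in Th17 and follicular helper differentiation, whereas Osmr and Lifr are best known from epithelial, mesenchymal and other non-lymphoid cells.

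Levels are given in FPKM, fragments scaled to the length of the gene and to the size of the library, as the authors deposited them. Rebuilt whole reads on genes numbered 30606569 to 32169496 per library. Groups were compared with limma on log2(FPKM + 0.1) over 15874 genes averaging 0.5 FPKM or more, a scale that understates the change of low genes. A gene passed the test at a Benjamini-Hochberg adjusted p under 0.05 over all tested genes, and was called when it also changed at least 2-fold.

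The labelled cell type was checked against 26 T-cell markers, all of which were abundant enough to be tested. Their summed level was 3401 to 3482 FPKM in the cisplatin libraries and 2136 to 2277 FPKM in the controls, with Tcf7 the most abundant, and 26 of 26 passed as higher (median log2 fold change 0.61). Markers of other cells were present too. The ID8 list (20 symbols, 16 tested) summed to 261 to 270 FPKM with cisplatin and to 1716 to 1804 FPKM in the controls. Of these markers 15 were called lower (median -2.41), among them Krt19 at 52.9 FPKM with cisplatin against 646, while Epcam did not pass (log2 fold change -0.08). B-cell markers summed to 3652 to 3724 against 1710 to 1798 FPKM (10 of 10 passed as higher, median 0.60), mostly from Ighm. Myeloid markers (10 tested, median 1.44) summed to 130 to 148 against 65.9 to 70.9 FPKM, with Lyz2 the most abundant. Of these, 8 passed as higher and Cd14 as lower. Of the 2 tested stromal and endothelial markers, Dcn was called lower (log2 fold change -2.37) and Pecam1 passed as higher (0.62). No marker of these lists was at 0 in every library. The part these cells have in the differences below was not tested, and in such bulk RNA fewer cells of a type and less RNA per cell cannot be told apart. As the T-cell markers were higher as a group, the changes of the family are also given after centring every library on them. The centring shifts every log2 fold change by -0.60, and so moves the median of all tested genes from 0.03 to -0.57.

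**Figure D1:**
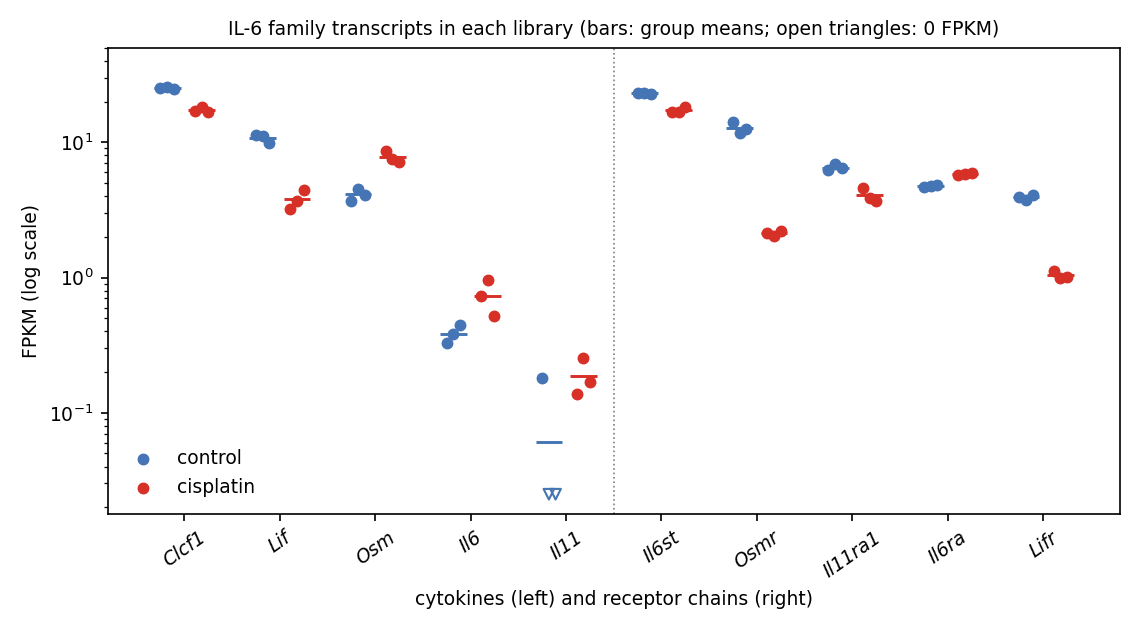
FPKM of the 10 genes in each of the 6 libraries on a log scale (points, libraries; bars, group means; open triangles, libraries at 0 FPKM). Osmr, Lif and Lifr lie lower in the cisplatin libraries and Osm lies higher, and the groups overlap only for Il11.

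The upstream sequences of the cytokine genes Il6 and Lif are shown because both windows hold the AP-1 motif. Lif was called lower and Il6 did not pass, and any part of the motif in these results was not tested. Both run 5′ to 3′ on the + strand, from the RefSeq promoter table (GRCm38.p6), which has entries for 8 of the 10 genes. The Il6 sequence lies at chr5:30012864-30013113 and the Lif sequence at chr11:4257318-4257556. Capitals mark AP-1 (TGANTCA), C/EBP (TTGCNNAA) and NF-κB core (GGANTTTCC) matches, each searched on both strands.
Il6: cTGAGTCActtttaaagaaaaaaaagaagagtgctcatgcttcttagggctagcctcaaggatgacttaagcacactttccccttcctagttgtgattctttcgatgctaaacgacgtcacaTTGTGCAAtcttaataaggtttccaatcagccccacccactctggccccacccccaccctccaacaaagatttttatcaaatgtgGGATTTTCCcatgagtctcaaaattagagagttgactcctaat
Lif: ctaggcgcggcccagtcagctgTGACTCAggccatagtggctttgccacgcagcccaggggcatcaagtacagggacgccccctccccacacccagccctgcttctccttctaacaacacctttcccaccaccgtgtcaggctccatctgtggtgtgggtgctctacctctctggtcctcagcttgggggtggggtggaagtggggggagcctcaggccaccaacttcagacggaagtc
The AP-1 match begins 249 bases before the Il6 start and 228 bases before the Lif start, as RefSeq places them. In Il6 the C/EBP match begins 128 bases and the NF-κB core match 43 bases before the start. The search covered windows of 300 bases that run past the start, beyond the upstream stretches shown. Over all 32851 such windows, 7.81% hold the AP-1 motif, 10.8% the C/EBP motif and 1.25% the NF-κB core. Among the family the AP-1 letters also occur in a window of Il11, 98 bases before the start, and in that of Osmr, where the match lies just after the start. These windows, at chr7:4778092-4778391 and chr15:6874264-6874563, lie inside the genes as their deposited coordinates are given below. The 250 upstream bases of the Osmr window are all exonic. The STAT motif TTCNNNGAA (8.30% of all promoters) and the CRE TGACGTCA (1.79%) occur in 0 of the 11 windows of these genes. The hypoxia core ACGTG (19.6%) occurs in that of Il6ra. A match describes letters in the window and shows no binding.

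Of the 10 genes, 9 passed the filter and were tested, and Il11 was not. Of the 9, 6 passed as lower with cisplatin (Osmr, Lifr, Lif, Il11ra1, Clcf1 and Il6st), where 29% of all tested genes passed as lower. Osm and Il6ra (2 genes, Il6ra turning lower after centring on the T-cell markers) passed as higher, against 27.5% of all tested genes. Osmr, Lifr and Lif (3 genes) were called lower, against 12.8% of all tested genes, and 0 were called higher, against 4.11%. At an unadjusted p under 0.05 the number higher was 2, a threshold for which no share of all genes was computed. With limma's voom on the rebuilt reads, which also tested Il11, 1 was called higher (Il11), against 1128 of 18541 tested genes. The libraries of both groups did not overlap for 9 of 9 tested genes, 6 lower and 3 higher, where the same held for 32.3% of all tested genes in the lower direction and 31.9% in the higher. Among the 3 higher is Il6, at means of 0.734 FPKM with cisplatin and 0.386 in the controls. It met the filter of 0.5 FPKM only through the cisplatin libraries. The median log2 fold change of the 9 was -0.54, beside 0.03 for all tested genes. Since all 10 symbols were chosen with earlier results known, these counts describe the family and do not test it.

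**Figure D2:**
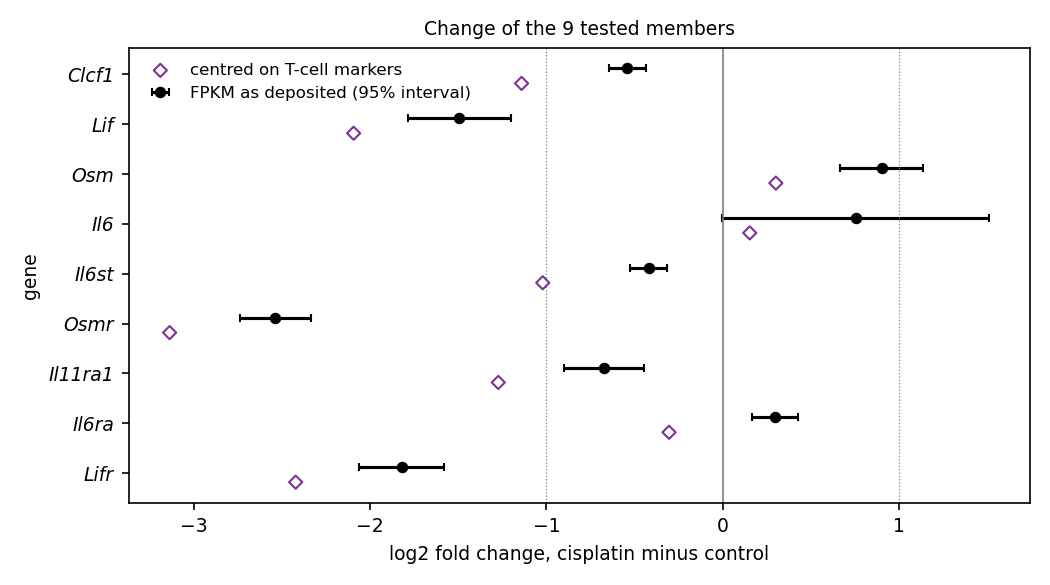
Log2 fold change (cisplatin minus control) of the 9 tested genes, with black points and 95% intervals for FPKM as deposited and open diamonds after centring on the T-cell markers. Osmr shows the lowest value at -2.54, and Il6ra moves from 0.30 to -0.30 under the centring.

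Among the cytokines, Lif, whose product acts on stem, epithelial and immune cells, fell and Osm rose. Lif (ENSMUSG00000034394, chr11:4257557-4272514, + strand, coordinates on mm10) stood at 3.22, 3.69 and 4.45 FPKM in cisplatin libraries 1 to 3 and at 11.3, 11.1 and 9.87 FPKM in control libraries 1 to 3. Every cisplatin library was below every control library. The means were 3.79 ± 0.617 and 10.8 ± 0.795 FPKM (SD, n = 3 each), a 2.82-fold lower level on the fitted scale (log2 fold change -1.49, SE 0.12, limma adjusted p = 6.8e-05). After centring on the T-cell markers the log2 fold change was -2.09.

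Osm, encoding oncostatin M, a cytokine made by activated T cells and myeloid cells, moved the opposite way. Osm (ENSMUSG00000058755, chr11:4236420-4241026, + strand) measured 8.57, 7.56 and 7.20 FPKM with cisplatin and 3.71, 4.54 and 4.10 FPKM in the controls, on 530 to 630 and 253 to 309 reads. The lowest cisplatin library lay above the highest control. The means of 7.77 ± 0.710 and 4.12 ± 0.414 FPKM (SD, n = 3 each) gave a log2 fold change of 0.90 (SE 0.10, limma adjusted p = 2.8e-04), below the 2-fold minimum. It reached 1.06 under quantile normalization, where it was called, 0.9995 with voom, just short of a call, and 0.30 (adjusted p = 0.026) after centring on the T-cell markers. Of 10 tested myeloid markers (median log2 fold change 1.44, and 0.84 centred), Lyz2 and 7 others passed as higher in the same libraries. Cd14 passed as lower (log2 fold change -0.47) and Cd68 did not pass (0.004). After the centring Itgam and Adgre1 no longer passed as higher, and the others of the 8 still did. The part of myeloid cells in the Osm difference was not tested.

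Osm and Lif are neighbours. They lie on the same strand of chromosome 11 with 16530 bases and 0 annotated genes between them, yet changed in opposite directions. Castor1, which lies on the other side of Osm, stood at 11.9 ± 1.37 FPKM with cisplatin and 10.04 ± 1.15 FPKM in the controls and did not pass the test (log2 fold change 0.25, adjusted p = 0.10).

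Clcf1, encoding cardiotrophin-like cytokine factor 1, which signals through the CNTF receptor complex, was the most abundant cytokine of the family in both groups. Clcf1 (ENSMUSG00000040663, chr19:4214238-4223490, + strand) measured 17.03, 18.3 and 16.7 FPKM with cisplatin and 25.4, 25.6 and 24.8 FPKM in the controls. The groups did not overlap, and the level fell 1.45-fold (log2 fold change -0.54, SE 0.04, adjusted p = 6.0e-05). Centred on the T-cell markers the value was -1.14, past the 2-fold minimum. The CNTF receptor chain Cntfr was close to absent, with 8, 0 and 1 reads in the cisplatin libraries and 0 in each control.

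Il6 was scarce. Il6 (ENSMUSG00000025746, chr5:30013114-30019981, + strand) had 57, 77 and 41 reads (0.725, 0.957 and 0.521 FPKM) in the cisplatin libraries and 24, 28 and 33 reads (0.329, 0.385 and 0.443 FPKM) in the controls. All cisplatin libraries were above all controls, and the gene did not pass the test (log2 fold change 0.75, 95% interval -0.0016 to 1.51, adjusted p = 0.082). It passed with voom on the rebuilt reads (0.97, adjusted p = 0.028), under quantile normalization (0.98, adjusted p = 0.034) and with no trend in the variance prior (0.75, adjusted p = 0.031). Centred on the T-cell markers the value was 0.15 (adjusted p = 0.69). Without cisplatin replicate 2, the highest library, the mean fell below the filter and no test was made.

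Il11, encoding a cytokine best known from stromal and epithelial cells, was near the detection floor of 3 reads. Il11 (ENSMUSG00000004371, chr7:4772373-4782857, − strand) had 9, 17 and 11 reads with cisplatin and 11, 0 and 0 in the controls. The groups overlapped, since 1 control library held as many reads as a cisplatin library. Without the filter the log2 fold change was 1.003 (SE 0.48, adjusted p = 0.20), whereas voom gave 3.10 (SE 0.97, adjusted p = 0.0085) and called it higher, so the result depended on the treatment of low counts.

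The summed level of the 5 cytokine transcripts was 29.8 ± 0.829 FPKM with cisplatin and 40.6 ± 1.27 FPKM in the controls (SD, n = 3 each). Within this sum the Osm share was 26.1% ± 2.41 with cisplatin and 10.1% ± 0.954 in the controls, and the Lif share 12.7% ± 2.30 and 26.5% ± 1.27. Clcf1 held 58.1% ± 1.14 and 62.2% ± 0.898, and Il6 held 2.45% and 0.953%. Lif thus led Osm in the controls and Osm led Lif in the cisplatin libraries.

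Among the receptor chains, Osmr and Lifr fell most, Il11ra1 and Il6st fell less, and Il6ra rose slightly in FPKM as deposited but was lower after centring on the T-cell markers. Osmr (ENSMUSG00000022146, chr15:6813577-6874969, − strand) measured 2.14, 2.04 and 2.20 FPKM in the cisplatin libraries against 14.2, 11.7 and 12.6 FPKM in the controls, on 817 to 865 and 4258 to 5178 reads. The groups lay far apart relative to their spread. The means of 2.13 ± 0.0849 and 12.9 ± 1.27 FPKM (SD, n = 3 each) differed 5.81-fold on the fitted scale (log2 fold change -2.54, SE 0.08, adjusted p = 1.1e-06), and the centred value was -3.14.

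Lifr, the signalling chain for LIF, showed the next lowest value. Lifr (ENSMUSG00000054263, chr15:7090614-7197489, + strand) measured 1.11, 0.994 and 1.002 FPKM with cisplatin and 3.93, 3.73 and 4.08 FPKM in the controls. The level was 3.54-fold lower (log2 fold change -1.82, SE 0.10, adjusted p = 9.9e-06), with no overlap, and the centred value was -2.42. Osmr and Lifr lie head to head on chromosome 15 with 215644 bases and 0 protein-coding genes between them, so both neighbours fell here, unlike Osm and Lif. The ID8 markers had a median log2 fold change of -2.41 in the same libraries, near the values of Osmr and Lifr. The part of the ID8 cells in the Osmr and Lifr differences was not tested, and cannot be told apart from a change within T cells in these libraries.

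**Figure D3:**
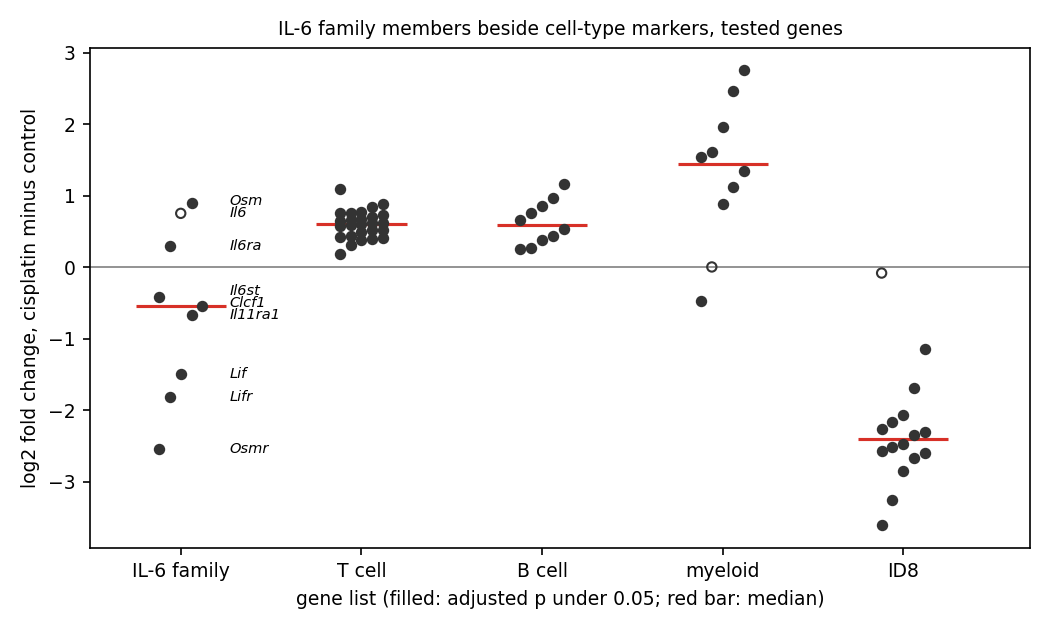
Log2 fold changes (cisplatin minus control) of the family genes beside the marker lists (points, genes; filled, adjusted p under 0.05; red bar, list median). The ID8 markers have a median of -2.41 and the T-cell markers one of 0.61, with Osmr at -2.54 and Lifr at -1.82 near the ID8 list.

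Il6st, the chain all of these cytokines share, was the most abundant receptor. Il6st (ENSMUSG00000021756, chr13:112464070-112510086, + strand) measured 16.7, 16.7 and 18.2 FPKM with cisplatin and 23.3, 23.0 and 22.8 FPKM in the controls. It fell 1.34-fold without overlap between the groups (log2 fold change -0.42, SE 0.04, adjusted p = 2.4e-04). Centred on the T-cell markers, the log2 fold change was -1.02, which is past the 2-fold minimum.

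Il6ra, the chain that binds IL-6 and lets T cells respond to it directly, was the only receptor chain of the 5 that was higher, in FPKM as deposited. Il6ra (ENSMUSG00000027947, chr3:89864059-89913196, − strand) measured 5.70, 5.86 and 5.96 FPKM with cisplatin and 4.64, 4.71 and 4.86 FPKM in the controls. The spread was small and the groups did not overlap (log2 fold change 0.30, SE 0.05, adjusted p = 0.0031). The direction turned after centring on the T-cell markers (-0.30, adjusted p = 0.0019), that is, Il6ra rose less than those markers did. Relative to the median of all tested genes the value was 0.27, the same under either scaling because the centring shifts all genes alike. The antisense gene Gm42809 shares 242 of the 8642 exon bases of Il6ra, and whether reads were counted by strand is not given in the sources used here.

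Il11ra1, the IL-11-binding chain, fell. Il11ra1 (ENSMUSG00000073889, chr4:41699989-41769474, + strand) measured 4.60, 3.901 and 3.68 FPKM with cisplatin and 6.22, 6.89 and 6.42 FPKM in the controls (log2 fold change -0.67, SE 0.10, adjusted p = 0.0010). Its centred value of -1.27 was past the 2-fold minimum. The cisplatin libraries were all below the controls, with the closer pair at 4.60 and 6.22 FPKM. The locus overlaps 6 other genes, 5 of them on the opposite strand, yet shares 8 of its 4471 exon bases with them. Il11ra2, a near copy, is listed 3 times in the table and is at 0 in every library. Of the 75-base windows of Il11ra2, 50.3% occur in Il11ra1 transcripts, and of those of Il11ra1 12.9% occur in Il11ra2 (7.03% at 150 bases). Reads from these shared stretches cannot be placed with certainty.

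In the controls the receptor levels ran in the order Il6st, Osmr, Il11ra1, Il6ra and Lifr. With cisplatin the order was Il6st, Il6ra, Il11ra1, Osmr and Lifr, and in neither group did neighbours in the order overlap. Over all 10 genes, the neighbours that overlapped were Osm and Lifr in the controls, and Clcf1 with Il6st and Il11ra1 with Lif in the cisplatin libraries. The summed receptor level was 30.3 ± 0.771 FPKM with cisplatin and 51.0 ± 1.16 FPKM in the controls. Osmr made up 7.03% ± 0.111 of it with cisplatin and 25.2% ± 1.91 in the controls, and Il6ra 19.3% ± 0.504 and 9.29% ± 0.360. Il6st held 56.8% ± 1.75 and 45.1% ± 0.734.

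Ratios within a library do not depend on the scaling between libraries, and 9 pairs were compared, chosen after their values were seen. Such ratios can still vary with the mixture of cells. The marker lists had median log2 fold changes of -2.41 (ID8), 0.61 (T cell), 0.60 (B cell) and 1.44 (myeloid). The part of the mixture in these ratios was not tested. With 3 libraries a group the two-sided exact permutation test cannot go below p = 0.1 (0.15 after Benjamini-Hochberg adjustment over the 9), so none can pass. Osm over Osmr, the ligand over its own receptor chain, was 4.003, 3.71 and 3.27 with cisplatin and 0.260, 0.387 and 0.325 in the controls, 11.4-fold higher with cisplatin (exact permutation p = 0.1). The Osm transcript thus exceeded that of Osmr in every cisplatin library and was below it in every control. Osm over Lif was 2.66, 2.05 and 1.62 against 0.327, 0.407 and 0.416, 5.42-fold higher (exact permutation p = 0.1). By contrast, Lif over Lifr was 2.91, 3.71 and 4.44 against 2.88, 2.98 and 2.42. Both of these genes fell, and the ratios overlapped (exact permutation p = 0.2).

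Relative to the shared chain Il6st, Osmr was 0.124 ± 0.00406 with cisplatin and 0.558 ± 0.0510 in the controls (4.501-fold lower), and Lifr was 0.0604 and 0.170 (2.82-fold lower). Il6ra relative to Il6st was 0.340 ± 0.0117 against 0.206 ± 0.00667, 1.65-fold higher. These 3 ratios did not overlap between the groups (exact permutation p = 0.1 each). Il11ra1 over Il6st overlapped, at 0.237 ± 0.0372 and 0.283 ± 0.0162 (exact permutation p = 0.2), as did Il6 over Il6ra at 0.126 ± 0.0380 and 0.0812 ± 0.0102 (p = 0.2). Osmr also fell more than Lifr, since Osmr over Lifr was 2.06 ± 0.135 against 3.29 ± 0.294, 1.59-fold lower (exact permutation p = 0.1).

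**Figure D4:**
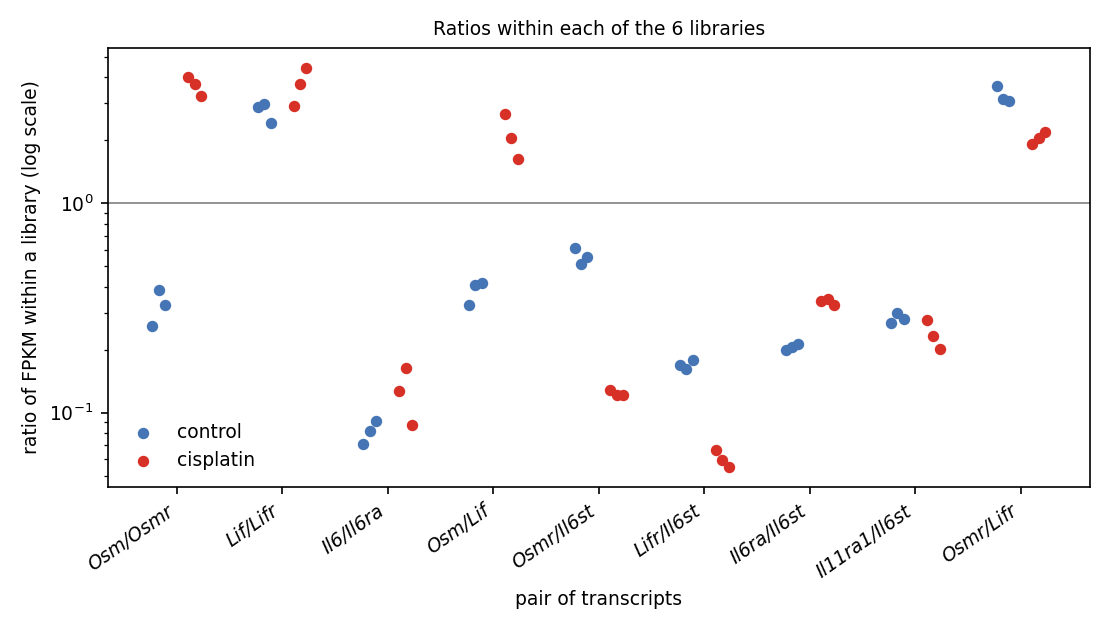
Ratio of FPKM of 9 pairs of transcripts within each of the 6 libraries, on a log scale with a line at 1 (points, libraries). Osm over Osmr lies between 3.27 and 4.003 with cisplatin and between 0.260 and 0.387 in the controls, whereas Lif over Lifr overlaps.

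Of 11 other symbols of the family, 3 genes were tested. Il27ra, the IL-27 receptor chain that pairs with gp130, rose to 50.3 ± 2.06 FPKM from 31.2 ± 1.68 in the controls (log2 fold change 0.69, adjusted p = 4.4e-05). Ebi3, a subunit of IL-27 and IL-35, rose from 4.85 ± 0.291 to 6.41 ± 0.627 FPKM (0.39, adjusted p = 0.0079). The Il27 subunit itself had 6 to 12 reads per library. Ctf1, encoding cardiotrophin 1, a further ligand of gp130 and Lifr, was called lower at 0.196 ± 0.00889 against 1.01 ± 0.273 FPKM (-1.88, adjusted p = 0.0023), on 11 to 12 and 44 to 72 reads. It met the filter of 0.5 FPKM only through its control libraries, which favours a call in that direction. Centred on the T-cell markers, Il27ra was at 0.09 (adjusted p = 0.21) and Ebi3 at -0.21 (adjusted p = 0.081), neither passing. The median of the 3 was 0.39, and -0.21 centred.

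Downstream, the signal transducers moved in both directions. Of 12 tested, 5 passed as lower and 6 as higher, with a median log2 fold change of 0.05 (-0.55 centred on the T-cell markers). Stat3, the main transcription factor of the pathway, measured 39.2 ± 1.17 FPKM with cisplatin and 43.2 ± 0.906 in the controls (-0.14, adjusted p = 0.013), and Jak1 did not pass (-0.04, adjusted p = 0.20). Gab1, an adaptor that carries gp130 signals to the MAPK and PI3K pathways, was the 1 gene called, at 0.953 against 5.36 FPKM (-2.38, adjusted p = 7.4e-06). Sos1 (-0.44) and Ptpn11 (-0.23), which link receptors to Ras, also fell. Stat5a (0.61), the kinase Tyk2 (0.40) and the adaptor Grb2 (0.31) rose, and centred they stood at 0.01, -0.20 and -0.29.

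Among 7 tested inhibitors of the pathway, 2 passed as lower and 3 as higher (median 0.15, and -0.45 centred). Socs3, the feedback inhibitor that binds gp130, fell slightly, from 58.0 ± 0.417 to 50.5 ± 1.71 FPKM (-0.20, adjusted p = 0.0022), as did Pias1 (-0.23). Ptpn6, a phosphatase of blood cells, was called higher at 89.9 ± 2.67 against 43.8 ± 0.290 FPKM (1.04, adjusted p = 7.3e-07), and Socs1 (0.46) and Ptpn2 (0.35) passed as higher. Centred, Ptpn6 was at 0.44, Socs1 at -0.14 and Ptpn2 at -0.25. Both sheddases that can release soluble IL-6Rα were lower. Adam10 fell from 73.3 ± 1.38 to 37.3 ± 1.03 FPKM (-0.97, adjusted p = 1.2e-06), and Adam17 from 14.7 to 12.5 FPKM (-0.23, adjusted p = 0.034).

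Of 22 known STAT3 target genes 20 were tested, of which 10 passed as lower and 7 as higher, with 7 called lower, beside 12.8% of all tested genes (median -0.21, and -0.81 centred). The lowest were the transcription factors Cebpd (1.53 against 12.9 FPKM, -3.02, adjusted p = 5.5e-06) and Fosl2 (6.19 against 34.9 FPKM, -2.48, adjusted p = 8.5e-07), followed by Lcn2, an iron-carrier binding protein (-2.22). The highest were Batf, a factor of effector T cells (23.5 against 11.99 FPKM, 0.97, adjusted p = 1.4e-05), the adhesion molecule Icam1 (0.53) and the survival gene Mcl1 (0.46). Centred, Batf stayed higher (0.37), while Icam1 was at -0.07 and Mcl1 at -0.14. Of 11 regulators of these cytokines' transcription or mRNA decay, 5 passed as lower and 4 as higher (median -0.12, and -0.72 centred). Cebpb, the factor first named for binding the IL-6 promoter, was called lower at 15.2 ± 1.71 against 41.9 ± 1.99 FPKM (-1.46, adjusted p = 1.4e-05). The AP-1 genes Jun (-0.91) and Fosl1 (-0.58) fell, and the mRNA-binding genes Zfp36 (0.33), Arid5a (0.25) and Zc3h12a (0.23) rose but were lower when centred (-0.27, -0.35 and -0.37). These lists are described by their counts and medians. Of all tested genes, 29% passed as lower, 27.5% as higher, 12.8% were called lower and 4.11% called higher. Their median was 0.03. The ID8 markers had a median of -2.41 in the same libraries, and the part of ID8 cells in these lists was not tested.

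**Figure D5:**
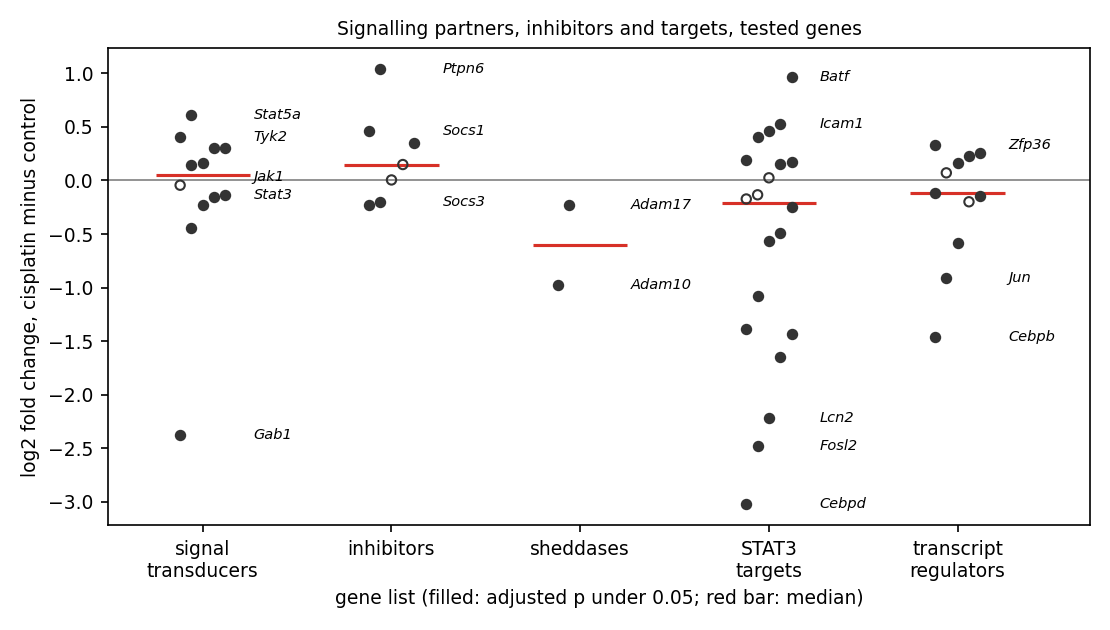
Log2 fold changes (cisplatin minus control) of the tested genes in each pathway list (points, genes; filled, adjusted p under 0.05; red bar, list median). The medians lie between -0.60 for the 2 sheddases and 0.15 for the 7 inhibitors, and Cebpd is the lowest point at -3.02.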

How the data were processed

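Poly-A RNA was sequenced from 6 libraries (3 cisplatin, 3 control), grouped by the treatment in the sample labels. The authors deposited FPKM for 54532 genes. The submitters' processing notes name fastp, HISAT2 2.0.5, featureCounts 1.5.0-p3 and mm10, whereas the methods of the study name LifeScope for alignment and counting. Which made the table, and whether reads were counted by strand or shared between genes, is not given in the sources used here. Coordinates equal those of GENCODE M21 (GRCm38) for 53585 of 54495 shared genes. The table held 0 columns of other samples.

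Whole reads were rebuilt from FPKM and the deposited gene length (100% of values within 0.1 of a whole read), and cover counting error only. The FPKM denominator was 1.03 to 1.05 times the reads on genes in cisplatin libraries and 0.976 to 0.982 times in controls. No libraries were identical (chi-square per degree of freedom between replicates at least 5.36).

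The main test was limma 3.58.1 (R 4.3.3; lmFit, eBayes with trend) on log2(FPKM + 0.1) for genes averaging 0.5 FPKM or more, with Benjamini-Hochberg adjustment over 15874 genes. The thresholds (adjusted p under 0.05, 2-fold) are those of the study, whose own test was on raw counts. Steps were tested on simulated data in which far fewer genes changed than passed here, evenly in both directions. Alternatives were pseudocounts of 1 and 0.01, no filter or a minimum of 1 FPKM, median-of-ratios and quantile scaling, centring on T-cell markers, TPM, voom on rebuilt reads (at least 10 in 3 libraries), no variance trend, no fold minimum, each library left out and a replicate block. Ratio and list-median alternatives were chosen after seeing the data. The members and lists were chosen with earlier results of these data known. All members are named, and from each list up to 3 genes with the largest rises and falls among those passing, the most abundant marker and near-identical copies. Genes named beyond this (Stat3, Jak1, Epcam, Il27, Cntfr and Castor1) were chosen after their values were seen. A further list gene is not reported here. Python 3.11.15, numpy 2.4.6, pandas 2.3.3, scipy 1.17.1 and matplotlib 3.10.9 were used.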

Additional observations from a re-analysis of the deposited data

How the results depend on the processing

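Over 17 refits, the log2 fold changes of Osmr (-3.14 to -2.14), Lifr (-2.42 to -1.27), Lif (-2.09 to -1.30), Osm (0.30 to 1.06), Clcf1 (-1.14 to -0.46), Il6st (-1.02 to -0.33) and Il11ra1 (-1.27 to -0.50) kept their direction and adjusted p under 0.05. Centring on the T-cell markers turned Il6ra to -0.30, the medians of the other family genes, signal transducers, inhibitors and B-cell markers to -0.21, -0.55, -0.45 and -0.0026, and gave 6 family genes called lower, with 3891 lower and 135 higher of all genes. Il6, on 24 to 77 reads, passed in 3 of 15 refits. Family genes called higher numbered 1 under quantile normalization (Osm), where 979 of 15874 tested genes were called higher, and 1 with voom (Il11). With no fold-change minimum 2 were higher and 6 lower (4603 lower and 4360 higher of all genes). All genes called higher numbered 311 of 15874 at a pseudocount of 1 and 1128 of 18541 with voom. The stromal and endothelial median, over few genes, turned to 0.078 with no filter and to 0.60 with voom. Leaving out 1 library gave 3 to 3 family genes lower and 0 to 0 higher, and 1907 to 2083 lower and 570 to 693 higher of all genes. Replicate numbers did not pair the libraries (same-number correlations of deviations 0.023, -0.063 and -0.021), and the replicate block gave 3 family genes lower and 0 higher, and 2011 lower and 651 higher of all genes. The cause of these shifts was not tested.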
